A study of Mus musculus with 2 samples.

Results

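A small set of cells with RNA of 2-cell embryo genes was present in both libraries of single-cell RNA sequencing (scRNA-seq) in the study, and is described here. A cell was counted as 2-cell-like when it held at least 4 unique molecular identifiers (UMIs, each standing for 1 captured RNA molecule) summed over the rule genes Zscan4c, Zscan4d, Zscan4f, Tcstv3, Tmem92 and Zfp352, with at least 2 of these genes detected. Of 20454 kept cells, which had 1000 or more detected genes and no more than 10% of UMIs from mitochondrial genes, 60 met this rule, 29 of 11054 in the ESC library and 31 of 9400 in the 48h-EpiLC library. Kept cells of the same library without a UMI of the 6 rule genes, 10885 and 9256, served as comparison cells.

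The ESC library (0 h) came from mouse embryonic stem cells grown in serum and LIF on dishes with feeder fibroblasts. The 48h-EpiLC library came from epiblast-like cells 48 h into differentiation on Matrigel, in N2B27 medium with activin A, bFGF and 1% KSR. Both libraries mixed equal numbers of wild-type (WT) cells with the ROSA mT/mG reporter, from which tdTomato is transcribed, with Cnot8 knockout (KO) cells, and the labels give the strain as ICR and the genotype tag only as wild type. The product of Cnot8 is one of the deadenylases of Ccr4-Not, a complex that shortens poly(A) tails, and the knockout was made by CRISPR/Cas9 with a guide to exon 2. With 1 library per stage the differences below have no replicate check and no test was run, and an effect of stage cannot be told apart from one of library. Whether each genotype was 1 clone is not given in the sources used here.

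Mouse embryos switch on their genome at the 2-cell stage with a burst of transcription from a particular set of genes, many of which lie in tandem copies, and from MERVL retroviral elements. In cultures of mouse ESCs a small and changing minority of cells passes through a similar state, and such cells are known as 2-cell-like cells. The transcription factor Dux can start this program, Dppa2 and Dppa4 act upstream of Dux, and the Zscan4 zinc finger proteins are linked to telomere lengthening and to loss of DNA methylation in these cells. Transcripts of MERVL elements were not analysed here.

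The rule genes and their relatives differ little in sequence within a family, and this bears on what a count of one of them means. The 200 bases before the annotated start of 3 rule genes of the Zscan4 family, of Zfp352 and of 2 genes of the Tcstv region of chromosome 13 are shown, because the rule and much of what was found belong to these families. They were taken from RefSeq on GRCm38.p6, and read 5′ to 3′ along the strand of the gene, at chr7:11005545-11005744 (plus strand) for Zscan4c, chr7:11166149-11166348 (minus strand) for Zscan4d, chr7:11397715-11397914 (plus strand) for Zscan4f, chr4:90218620-90218819 (plus strand) for Zfp352, chr13:119913469-119913668 (minus strand) for Gm21761 and chr13:120262895-120263094 (plus strand) for AF067061. Capitals mark TATAAA or TATAAG, 2 forms of a TATA box, and TGATTCAA, a part of the sequence that Dux is known to bind.
Zscan4c: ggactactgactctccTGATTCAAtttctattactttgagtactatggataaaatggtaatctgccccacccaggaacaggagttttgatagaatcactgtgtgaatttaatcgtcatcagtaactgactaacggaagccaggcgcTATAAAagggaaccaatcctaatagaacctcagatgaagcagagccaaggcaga
Zscan4d: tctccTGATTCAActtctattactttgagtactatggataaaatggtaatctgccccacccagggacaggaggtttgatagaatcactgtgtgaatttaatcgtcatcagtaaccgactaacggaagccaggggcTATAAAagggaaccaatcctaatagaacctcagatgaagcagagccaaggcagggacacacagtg
Zscan4f: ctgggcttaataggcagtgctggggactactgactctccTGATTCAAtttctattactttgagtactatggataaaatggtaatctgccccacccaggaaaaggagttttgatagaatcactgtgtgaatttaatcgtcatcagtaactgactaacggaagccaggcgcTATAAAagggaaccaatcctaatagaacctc
Zfp352: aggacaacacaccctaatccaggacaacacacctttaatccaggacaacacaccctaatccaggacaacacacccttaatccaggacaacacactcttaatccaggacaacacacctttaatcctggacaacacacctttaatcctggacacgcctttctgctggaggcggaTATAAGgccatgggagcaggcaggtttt
Gm21761: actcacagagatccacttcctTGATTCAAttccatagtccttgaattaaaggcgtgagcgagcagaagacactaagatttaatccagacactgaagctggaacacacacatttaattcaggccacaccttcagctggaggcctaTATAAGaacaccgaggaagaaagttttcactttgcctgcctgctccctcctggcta
AF067061: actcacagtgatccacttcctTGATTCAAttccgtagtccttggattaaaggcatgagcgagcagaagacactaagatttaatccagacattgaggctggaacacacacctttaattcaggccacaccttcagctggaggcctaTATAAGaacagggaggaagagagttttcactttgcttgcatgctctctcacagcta

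The promoters of Zscan4c and Zscan4f were identical at 275 of 277 aligned bases (99.3%), those of Zscan4c and Zscan4d at 280 of 287 (97.6%), and those of Gm21761 and AF067061 at 271 of 300 (90.3%). Each of the 6 shown held TATAAA or TATAAG, first at 28 to 65 bases before the annotated start, and all but that of Zfp352 held TGATTCAA 161 to 195 bases before it. A further promoter that was read but is not shown, that of Usp17lc, held TATAAA 88 bases before the start and no TGATTCAA. The 3 motifs were chosen after the sequences had been seen, were searched on both strands, and do not overlap one another as words. Over all 32851 RefSeq promoters of 300 bases, 13.6% held TATAAA, 7.43% held TATAAG and 0.581% held TGATTCAA. Over the 162 promoters of the 139 matched genes that were clearly higher in 2-cell-like cells of both libraries (defined below), the shares were 16.7%, 9.26% and 1.85%. The last is 3 promoters, among them those of Gm21761 and AF067061, on which the motif had been seen, so it cannot be set against the share of all promoters. Among 17 promoters of 16 matched 2-cell genes outside the rule, 4 held TATAAA, 3 held TATAAG and 2 held TGATTCAA. A match is a description of the letters and not a binding site.

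The transcript ends, from which these libraries count, were shared as well. For Zscan4f, 79.1% of the 90-base stretches in the last 500 bases of its transcripts were also found in another gene, against 38.7% for Zscan4c, 24.8% for Zscan4d and 4.48% for Tcstv3, and 100% for Zscan4b and Zscan4e. No stretch of Tmem92 or Zfp352 was shared. Since reads that fit several genes equally well are usually assigned to none, counts are uncertain between members of the Zscan4 family.

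The share of 2-cell-like cells was 0.262% of kept cells in the ESC library (95% exact binomial interval 0.176 to 0.377%) and 0.33% in the 48h-EpiLC library (0.224 to 0.468%). These and all other intervals cover counting error only, and are not adjusted for the number of genes. The 2 shares lay within each other's intervals. Zscan4d was detected in 27 of 29 cells of the ESC library and in 28 of 31 of the 48h-EpiLC library, and Zscan4c in 22 and 24. Tmem92, which encodes a membrane protein, was detected in 15 and 26 of the cells. Tcstv3, a member of the 2-cell-stage variable group on chromosome 13, was detected in 8 and 13, and Zfp352, a zinc finger gene of the 2-cell embryo, in 9 and 5. Zscan4f was detected in 2 and 4 cells, with 1 UMI in each.

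**Figure D1:**
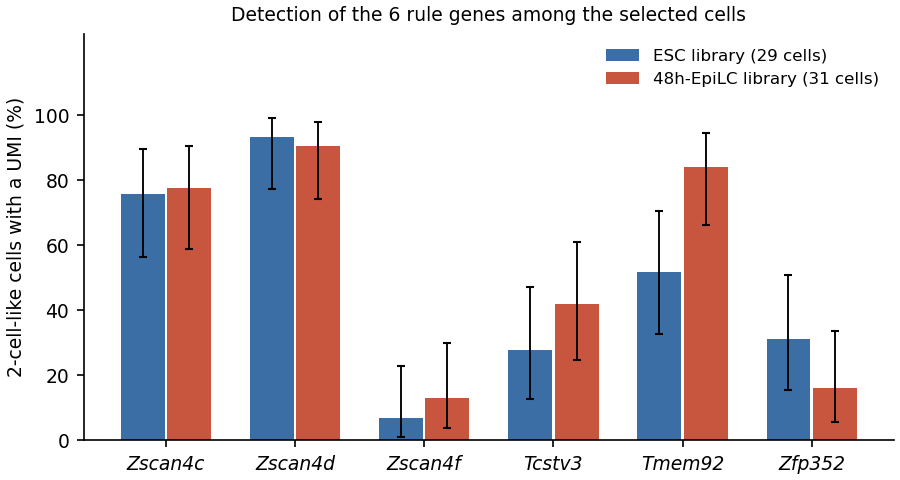
Share of the selected cells (%) with at least 1 UMI of each of the 6 rule genes, in the ESC library (29 cells) and the 48h-EpiLC library (31 cells). Lines are 95% exact binomial intervals of counting error. Zscan4c and Zscan4d were present in most of the cells of both libraries, and Zfp352 in a minority of both. These genes chose the cells, so the plot is a description.

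A 2-cell-like cell held between 4 and 43 UMIs of the rule genes in the ESC library (median 9) and between 4 and 53 in the 48h-EpiLC library (median 10). Summed over the cells, Zscan4d stood at 440 and 487 counts per 1000000 UMIs (CPM), Zscan4c at 158 and 191, Tmem92 at 79.2 and 175, Tcstv3 at 98.3 and 211, Zfp352 at 68.3 and 29.1, and Zscan4f at 5.46 and 8.97. In these sums 1 UMI corresponds to 2.73 CPM in the ESC library and to 2.24 CPM in the 48h-EpiLC library, so that genes under about 3 UMIs (8.19 and 6.73 CPM) cannot be told from 0. Since the comparison cells lack these genes by the rule, no ratio is given for them.

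The label was set beside 2-cell genes that the rule did not use. A list of 44 further genes reported from 2-cell embryos or 2-cell-like cells had 41 in the matrix, and together these made up 3903 CPM in 2-cell-like cells against 11.8 CPM in comparison cells of the ESC library, and 7537 against 7.49 CPM in the 48h-EpiLC library. At least 4 UMIs of the list were found in 28 of 29 and 31 of 31 of the selected cells, and in 27 of 10885 (0.248%) and 11 of 9256 (0.119%) comparison cells. The list was assembled with earlier results of these data known, and holds relatives of the rule genes such as Zscan4b, Zscan4e and Tcstv1. These values therefore describe the selected cells and are no independent check of the label, which was kept. Cells outside the selection that hold some of this RNA are given next.

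The threshold of 4 UMIs left cells with RNA of 2-cell genes outside. Of the cells with 1 to 3 rule-gene UMIs, 25 of 138 (18.1%) and 21 of 109 (19.3%) held at least 4 UMIs of the other 2-cell genes. The 5 and 3 selected cells with exactly 4 rule-gene UMIs had a median of 16 and 53 UMIs of the other 2-cell genes. The 6 and 5 cells with 3 rule-gene UMIs had a median of 3.5 and 6. A further 2 and 4 cells had at least 4 UMIs of a single rule gene, and were not counted because the rule asks for 2 genes. Of these, 1 of 2 and 4 of 4 held at least 4 UMIs of the other 2-cell genes.

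As a measure of free RNA in the droplets, any UMI of a rule gene was found in 1 of 96 feeder-like cells of the ESC library (1.04%, interval 0.0264 to 5.67%, median 16059 UMIs per cell), a cell type that should lack these genes, against 1.53% of all kept cells of that library (median 11883 UMIs). In primitive endoderm-like cells it was 5 of 149 (3.36%, interval 1.1 to 7.66%, median 12565 UMIs). The 48h-EpiLC library held neither of these cell types by the marker lists, and 1.53% of its kept cells had a UMI (median 15284 UMIs). Between the libraries 26 kept barcodes were shared, none of them a 2-cell-like cell. Of the 2-cell-like cells, 1 in the ESC library and 0 in the 48h-EpiLC library were among the top 10% of doublet scores. The scores gave no working automatic threshold, so this count is no check for doublets.

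The 2-cell-like cells held less RNA by UMIs than the comparison cells. They had a median of 9604 UMIs (range 3093 to 30066) against 11880 in the ESC library, a ratio of 0.808, and 12181 (5609 to 39167) against 15276.5 in the 48h-EpiLC library, a ratio of 0.797. They had 3339 against 3549 detected genes in the ESC library and 3363 against 4057 in the 48h-EpiLC library. After every cell with at least 5000 UMIs had been thinned to 5000, the numbers of genes were 2059 against 2119 and 1926 against 2100. The thinning left out 2 of the 2-cell-like cells, both from the ESC library, and 494 and 200 comparison cells. The mitochondrial share was 4.22% against 3.95% in ESCs and 3.66% against 3.12% in 48h-EpiLCs, and ribosomal protein genes took 21.04% against 19.9% and 21.7% against 21.1% of UMIs. Single cells of the 2 classes overlapped in each of these measures.

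The rule genes and the other 2-cell genes together made up a median of 0.352% of the UMIs of a 2-cell-like cell in the ESC library, with a range of 0.0336 to 2.56%, and a median of 0.837% in the 48h-EpiLC library, with a range of 0.150 to 5.42%. The 2 libraries overlapped over most of this range. The load is relative to the UMIs of the cell and each cell needs 4 rule-gene UMIs, so a high load in cells with few UMIs is partly set by the rule and the measure. The 14 ESC library cells above the median load had a median of 6862.5 UMIs against 14896 in the other 15, and the 15 such cells of the 48h-EpiLC library had 10738 against 16188.5 in the other 16.

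**Figure D2:**
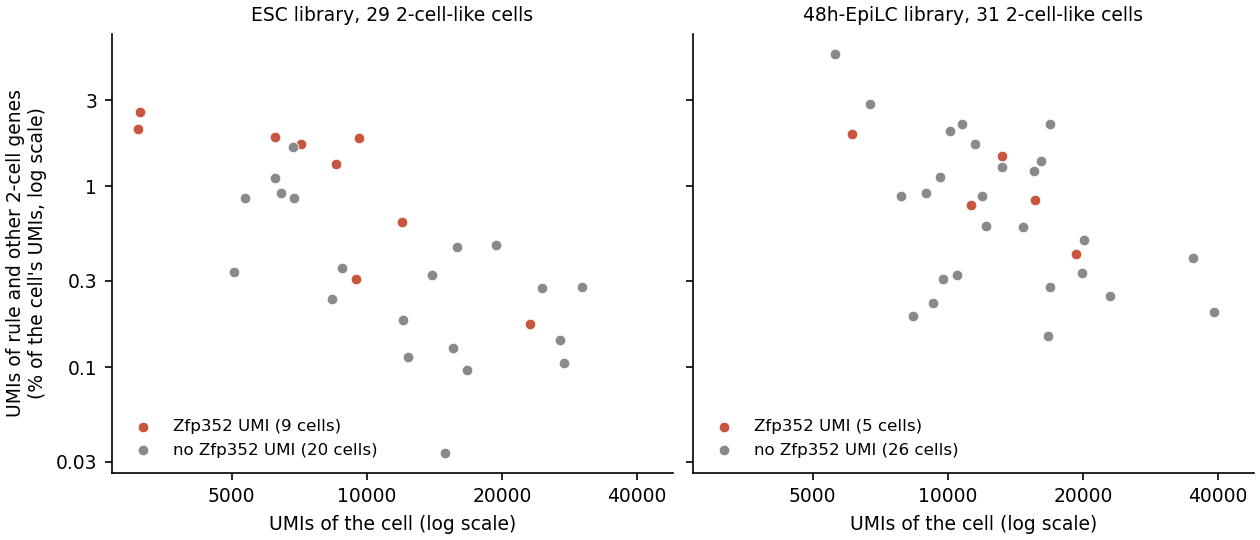
Each point is 1 of the 2-cell-like cells, 29 in the ESC library and 31 in the 48h-EpiLC library. The horizontal axis gives the UMIs of the cell and the vertical axis the percent of them that belong to rule genes and other 2-cell genes, both on log scales. Points are coloured by whether a Zfp352 UMI was found. The load ran from 0.0336 to 2.56% in the ESC library and from 0.150 to 5.42% in the 48h-EpiLC library. The rule and the division by the cell's UMIs favour a high load in cells with few UMIs.

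To describe the other genes, UMIs were summed over the 2-cell-like cells and over the comparison cells of a library, scaled to CPM, and compared as the log2 ratio of CPM + 1. Genes with at least 5 CPM in either sum were used, and a gene was called higher or lower past a ratio of 2-fold. It was called clearly higher or lower when the 95% interval of the unshifted ratio lay wholly past 2-fold. Where an interval is said below to lie above or below 0, the share of all genes with such an interval is not given. The cells were chosen by genes that belong to the same program, so these counts describe the chosen cells. A gene that is near 0 in comparison cells enters only when it is high in 2-cell-like cells.

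In the ESC library, 1062 of 10526 genes (10.1%) were higher past 2-fold and 350 (3.33%) clearly so, while 964 (9.16%) were lower and 5 (0.0475%) clearly so. Of the 48h-EpiLC library's genes, 998 of 10205 genes (9.78%) were higher and 521 (5.11%) clearly so, while 1283 (12.6%) were lower and 10 (0.0980%) clearly so. Of 9550 genes used in both libraries, 452 (4.73%) were higher in both and 264 (2.76%) clearly higher in both, while 222 (2.32%) were lower in both and 0 clearly lower in both (0%). Among these 9550, the shared higher genes were 67.6% of the 669 higher in the ESC library and 60.5% of the 747 in the 48h-EpiLC library. The shared lower genes were 26.1% of 849 and 19.09% of 1163. Clearly higher genes were shared to 93.6% of the ESC library's 282 and 64.2% of the 48h-EpiLC library's 411. A gene near 0 in comparison cells is among the 9550 only when it is high in 2-cell-like cells of both libraries. This filter raises the shares of higher genes. Across the 9550 genes, which are not independent replicates, the ratios of the 2 libraries had a Pearson correlation of 0.65. The libraries share the rule but no cells. The median ratio of all genes used was -0.05 in the ESC library and -0.21 in the 48h-EpiLC library on the log2 scale.

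**Figure D3:**
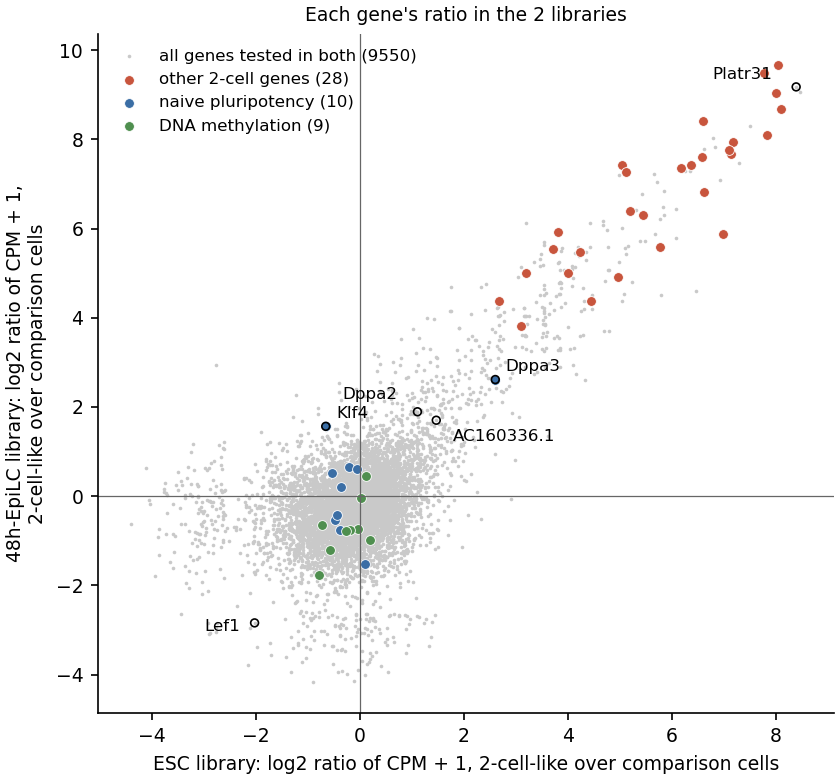
Each point is 1 of 9550 genes used in both libraries, with its log2 ratio of CPM + 1 between 2-cell-like and comparison cells in the ESC library on the horizontal axis and in the 48h-EpiLC library on the vertical axis. The 28 other 2-cell genes used in both (red) lie at the upper right, Dppa3, Dppa2 and AC160336.1 lie above 1 in both, Lef1 lies below -2 in both, and Klf4 lies on opposite sides of 0.

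The other 2-cell genes were higher wherever they were used, 32 of 32 in the ESC library (10.1% of all genes were higher) and 30 of 30 in the 48h-EpiLC library (9.78% of all genes), with a median log2 ratio of 5.33 and 6.60. The list was assembled with earlier results of these data known, and the filter admits such genes only through the 2-cell-like cells, so these counts describe what was selected. For ESCs the interval included 0 only for Pramel6, which had 2 UMIs in 2 cells. The list genes without UMIs in 2-cell-like cells numbered 9 and 8. The list covers PRAMEF-like, Tcstv, Usp17-like and eukaryotic initiation factor-like copies, and single genes. Gm8300, a copy on chromosome 12 of an initiation factor 1A gene, stood at 473 CPM against 0.847 in the ESC library and at 827 against 0.568 in the 48h-EpiLC library. Gm5039, of the same run of copies, stood at 784 against 1.96 CPM and at 1619 against 0.983 CPM. Per cell, Gm5039 ranged from 0 to 5745 CPM with a median of 448 in the 29 ESC library cells, and from 0 to 7845 with a median of 1525 in the 31 cells of the 48h-EpiLC library, while the median comparison cell had 0.

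In the Tcstv region, Tcstv1 stood at 175 against 0.208 CPM and at 285 against 0.166 CPM, Gm20767 at 402 against 0.467 and at 664 against 0.632, and Gm21761 at 287 against 0.316 and at 977 against 0.357. The deubiquitinase copies Usp17la and Usp17lc stood at 131 and 183 CPM in the ESC library and at 251 and 267 CPM in the 48h-EpiLC library, with at most 0.388 CPM in comparison cells. Sp110, a nuclear body protein gene, was found in 14 of 29 and 17 of 31 cells. It stood at 161 against 0.273 CPM and at 114 against 0.951 CPM. Duxf3, the Dux copy in the annotation, stood at 21.9 against 0.208 CPM with UMIs in 6 cells, and at 60.5 against 0.389 CPM with UMIs in 14 cells. Zscan4b had 11 UMIs in 9 cells of the ESC library and none in comparison cells. All of its end stretches were shared with other genes, the rule genes Zscan4c, Zscan4d and Zscan4f among them. Comparison cells were chosen to lack UMIs of these, so no ratio is given for Zscan4b. Shared transcript ends leave the split between copies open for Gm12794 and the Zscan4 copies, and in part for Gm20767 (35.2% of stretches shared), Gm21761 (28.0%) and Sp110 (24.3%).

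Outside the lists, the 15 genes with the largest shared ratios were B020031M17Rik, Platr31, BC080695, Zscan4-ps2, BC147527, Gm48764, Gm21319, Gm8994, Gm6803, Gm12800, AF067061, Ccser1, Zscan4-ps1, Gm4858 and Zscan4-ps3. Many are unnamed copies next to list genes. Platr31, a long noncoding RNA on chromosome 6 (chr6:127100297-127110467, plus strand), stood at 1827 CPM against 4.44 in the ESC library, with UMIs in 23 of 29 cells. At 48 h it stood at 4482 against 6.76 CPM, with UMIs in 31 of 31 cells. It overlaps Tigar on the other strand, and whether counting used the strand is not given in the sources used here. B020031M17Rik, in the Tcstv region, stood at 732 against 1.06 CPM and at 888 against 0.670 CPM. BC080695, in the run of PRAMEF-like copies on chromosome 4, stood at 240 against 0.323 CPM and at 417 against 0.325 CPM. Ccser1 is a large coding gene that overlaps A730020E08Rik on the other strand, and stood at 101 against 0.244 CPM and at 186 against 0.191 CPM.

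Some of the clearly higher genes lay in runs of neighbouring copies. Of the 263 with a position (GENCODE M21 on GRCm38), 191 (72.6%) were protein coding, 101 (38.4%) had another within 500 kb, and 55 (20.9%) fell in 10 runs of at least 3 genes. The same shares over all genes used are not given, so how far these exceed ordinary gene spacing was not tested. The run at chr12:87494721-88324026 held 14 clearly higher genes among 21 features, and summed to 2223 CPM against 4.15 in the ESC library and to 4251 against 2.74 in the 48h-EpiLC library. The Tcstv region at chr13:119893388-120308779 held 9 of 12, with 2030 against 2.46 CPM and 3601 against 2.20 CPM. The Zscan4 region at chr7:10900740-11614112 held 5 among 8 features, the others being the rule genes Zscan4c, Zscan4d and Zscan4f, and the 5 summed to 371 against 0.409 CPM and 543 against 0.255 CPM. The run at chr4:143551700-144364419 held 6 of 21, that at chr4:101834969-101981049 held 4 of 5, and the Usp17-like run at chr7:104768049-104862667 held 3 of 3. The sums cover the clearly higher genes of a run only, so their direction was fixed by that choice.

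Several genes that comparison cells also expressed are named here after their values were seen. The long noncoding RNA AC160336.1 (chr14:44544055-44637201, minus strand) took 22855 CPM in 2-cell-like cells against 8252 in comparison cells of the ESC library, a log2 ratio of 1.47 (interval 1.44 to 1.5), and 44234 against 13592 CPM in the 48h-EpiLC library, a log2 ratio of 1.70 (1.68 to 1.72). Per cell it ranged from 4319 to 134925 CPM (median 11245) in the ESC library and from 4537 to 110157 CPM (median 40617) in the 48h-EpiLC library. The median comparison cells had 7369 and 12251 CPM, so the ranges of single cells overlapped in both libraries. The locus overlaps the annotated genes Gm5624 and Gm8247. Plk4, the kinase that starts centriole duplication, stood at 844 against 421 CPM (log2 ratio 1.00) and at 1477 against 657 CPM (1.17). Exosc2, a subunit of the RNA exosome, stood at 789 against 360 CPM (1.13) and at 1457 against 538 CPM (1.44). It overlaps Gm13427 on the other strand. Per cell the median of Plk4 was 566 against 312 CPM and 1135 against 498 CPM, and that of Exosc2 441 against 282 CPM and 1089 against 436 CPM. The Plk4 ratio of the ESC library lay at the 2-fold line and was 0.84 without the 10 cells richest in rule-gene UMIs. The zinc finger gene Zfp560 stood at 164 against 8.30 CPM and at 513 against 10.8 CPM, and Prex2, an exchange factor for Rac, at 216 against 7.47 CPM and at 323 against 3.81 CPM. Parp1, which encodes a poly(ADP-ribose) polymerase, stood at 1011 against 783 CPM (0.37) and at 1325 against 667 CPM (0.99), under 2-fold in both.

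Of 21 regulators known to promote or hold back the 2-cell-like state, Dppa2 was the single one higher past 2-fold, in both libraries (1 of 21 each, against 10.1% and 9.78% of all genes). E2f6 was the 1 lower past 2-fold, in the 48h-EpiLC library (12.6% of all genes), at a log2 ratio of -1.27 with an interval that included 0. The list medians were -0.18 and -0.28. Dppa2, an activator of Dux, stood at 541 against 250 CPM in the ESC library, a log2 ratio of 1.11 (interval 0.90 to 1.31), with UMIs in 28 of 29 cells. At 48 h it stood at 643 against 173 CPM, a log2 ratio of 1.89 (1.73 to 2.07), with UMIs in 31 of 31 cells. Without the 10 cells richest in rule-gene UMIs the ratios were 0.84 and 1.72. The median cell had 479 CPM against 229 in ESCs and 417 against 155 in 48h-EpiLCs. Its partner Dppa4 did not share this, with 158 against 201 CPM and 164 against 179 CPM. Trim28, a corepressor that silences retroviral elements, stood at 1052 against 872 CPM and at 673 against 563 CPM, with intervals above 0 in both. Mga, a subunit of a repressive Polycomb complex, stood at 95.6 against 149 CPM and at 67.3 against 108 CPM, and the modifier Sumo2 at 852 against 1079 CPM and at 825 against 1200 CPM, with intervals below 0 in both. The intervals of the histone methyltransferases Ehmt1 and Ehmt2, of Pias4 and of the chromatin assembly factors Chaf1a and Chaf1b also lay below 0 in the 48h-EpiLC library. The median of all genes there was -0.21, so these are not set apart from genes at large.

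**Figure D4:**
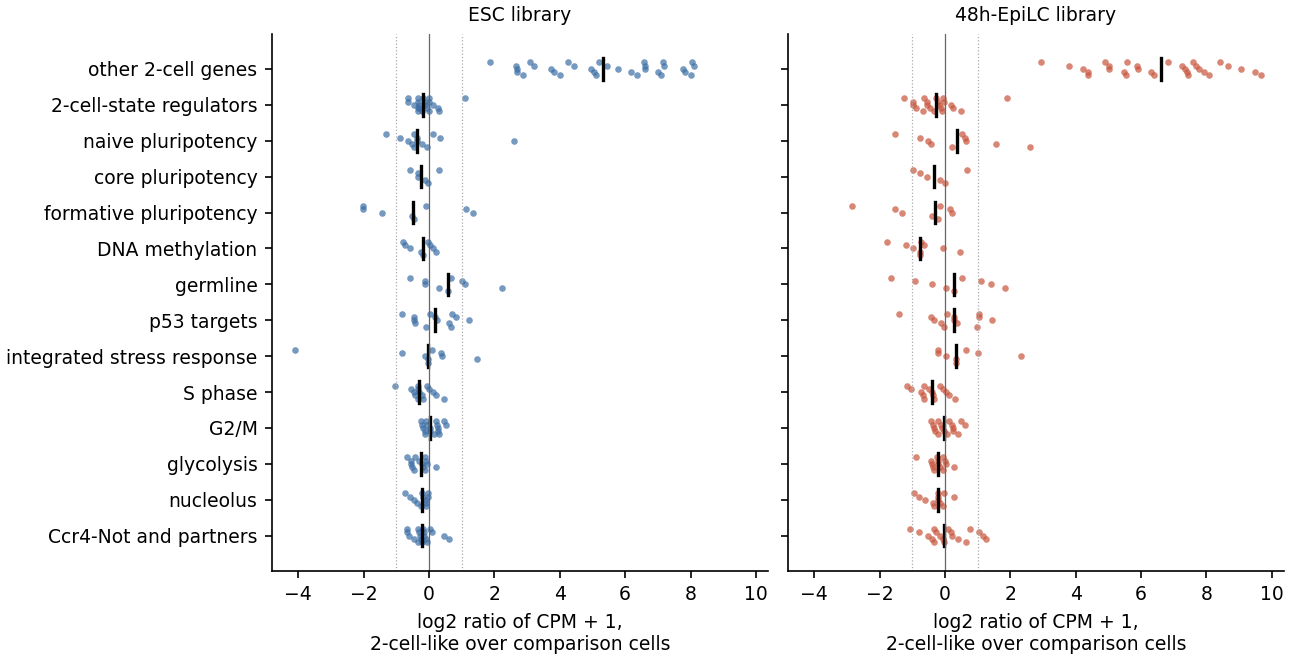
Log2 ratio of CPM + 1 between 2-cell-like and comparison cells for the genes of 14 lists in the ESC library (left) and the 48h-EpiLC library (right). Points are genes, black bars are list medians, and dotted lines mark a 2-fold ratio. The other 2-cell genes stand apart, with medians of 5.33 and 6.60, while the medians of the remaining lists lie between the dotted lines.

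Of the genes of DNA methylation in the ESC library, 0 of 9 were past 2-fold in either direction and the median log2 ratio was -0.20. At 48 h, 2 of 9, Tet2 and Tdg, were lower past 2-fold (12.6% of all genes were lower) and the median was -0.77. The de novo methyltransferase Dnmt3b stood at 305 against 512 CPM in the 48h-EpiLC library (log2 ratio -0.75, interval -1.001 to -0.50) and at 227 against 233 CPM in the ESC library (-0.04, interval -0.37 to 0.27). Dnmt3a stood at 143 against 246 CPM (-0.77) and at 123 against 148 CPM (-0.26), and the maintenance enzyme Dnmt1 at 62.8 against 108 CPM (-0.77) and at 120 against 138 CPM (-0.20), the 48h-EpiLC library first in each case. Dnmt3l, the partner of the de novo enzymes, had an interval above 0 in the 48h-EpiLC library, with 374 against 273 CPM. Tet1, which oxidises methylcytosine, was below in both libraries, with 175 against 290 CPM (-0.73) and 135 against 212 CPM (-0.65), and Uhrf1, which guides Dnmt1, was close to 0 in both (0.02 and -0.05). Antisense genes are annotated across Dnmt3a and Dnmt3b. The difference between the libraries was not tested.

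Among 14 genes of naïve pluripotency, Dppa3 was the 1 gene clearly higher in both libraries. Dppa3, which encodes a factor of oocytes and early embryos that protects against DNA methylation changes, stood at 79.2 against 12.2 CPM with UMIs in 12 of 29 ESC library cells, and at 229 against 36.5 CPM with UMIs in 10 of 31 cells of the 48h-EpiLC library, a log2 ratio of 2.61 in both. The highest cell had 2964 CPM in the 48h-EpiLC library and the median cell 0, so the sum rests on a minority of cells. The median comparison cell of that library also had 0. The upper quartile of single cells there was 52.7 CPM in 2-cell-like and 55.0 CPM in comparison cells, so only the sum was higher. In the ESC library the upper quartiles were 83.5 and 0 CPM. Without the 10 cells richest in rule-gene UMIs the log2 ratio was 1.07 in the 48h-EpiLC library and 2.77 in the ESC library. Klf4 stood at 73.8 against 117 CPM in ESCs and at 17.9 against 5.40 CPM in 48h-EpiLCs, the latter from 8 UMIs in 7 cells. Klf2 stood at 303 against 440 CPM in ESCs and at 108 against 75 CPM in 48h-EpiLCs. Both pluripotency factors were thus on the low side in ESCs and on the high side in 48h-EpiLCs, with intervals that excluded 0, and this difference was not tested. Without the 10 cells richest in rule-gene UMIs the Klf4 log2 ratio of the 48h-EpiLC library was 0.80, under 2-fold. Zfp42 stood at 377 against 489 CPM and at 42.6 against 72.9 CPM, under 2-fold in both, with intervals below 0. Nanog stood at 73.8 against 68.4 CPM in ESCs and, from 3 UMIs, at 6.73 against 21.2 CPM in 48h-EpiLCs. The list median was -0.37 in ESCs and 0.36 in 48h-EpiLCs.

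Of the 6 core pluripotency genes, 0 were past 2-fold in either library. Pou5f1, which encodes Oct4, stood at 73.8 against 81.1 CPM and at 83.0 against 91.5 CPM, with a log2 ratio of -0.14 in both and intervals that included 0 (-0.74 to 0.40 and -0.65 to 0.32). Sox2 stood at 164 against 246 CPM (-0.59) and at 76.2 against 112 CPM (-0.55). Utf1, a chromatin factor of undifferentiated cells, stood at 574 against 727 CPM (-0.34, interval -0.54 to -0.15) and at 442 against 875 CPM (-0.99, interval -1.20 to -0.79). The median 2-cell-like cell of the 48h-EpiLC library had 341 CPM of Utf1 and the median comparison cell 851 CPM. Tdgf1, a Nodal coreceptor, stood at 923 against 741 CPM (0.32) and at 856 against 539 CPM (0.67). At 48 h, however, the median 2-cell-like cell had 349 CPM of Tdgf1 against 502 in the median comparison cell, and 1 cell had 5174 CPM, so that sum and median pointed opposite ways there.

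Of 8 formative genes, 3 were lower past 2-fold in each library, Lef1, Fst and Otx2 among ESCs (9.16% of all genes) and Lef1, Etv4 and Otx2 among 48h-EpiLCs (12.6%). Fgf5 and Sox3 were higher past 2-fold among ESCs (10.1% of all genes). Of these genes only Lef1 had an interval that excluded 0 in the ESC library. Fgf5 had 1 UMI in the 2-cell-like cells with a Zfp352 UMI there and 1 in those without, too few to be told from 0. Lef1, a transcription factor of the Wnt pathway, was the 1 clearly lower gene of the list, in the 48h-EpiLC library (0.0980% of all genes). It stood at 8.97 against 70.4 CPM there (log2 ratio -2.84, interval -4.85 to -1.62) and at 10.9 against 47.6 CPM in the ESC library (-2.03, interval -3.999 to -0.77), from 4 UMIs in each. An antisense gene, Lef1os1, is annotated across it. Otx2 stood at 15.7 against 47.0 CPM in the 48h-EpiLC library. The list medians were -0.49 and -0.30.

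Genes below the comparison cells in both libraries were fewer and less far apart. The 15 with the largest shared ratios by the naming rule included Zdbf2, Kat6b, Hspbap1, Cdca7, Slc38a1, Tcf15, Phip, Rrp8, Ccnd1, Slc7a3, Rcor2, Pold3 and Ubl4a, and the intervals of all 15 lay below 0 in both libraries. Zdbf2, an imprinted gene, stood at 27.3 against 92.7 CPM (-1.73) and at 22.4 against 68.9 CPM (-1.58). The histone acetyltransferase gene Kat6b stood at 49.2 against 119 CPM (-1.26) and at 22.4 against 56.7 CPM (-1.30). Ccnd1, which encodes cyclin D1, stood at 76.5 against 149 CPM (-0.95) and at 44.8 against 117 CPM (-1.36). The amino acid transporters Slc7a3 and Slc38a1 stood at 38.2 against 74.4 and 38.2 against 82.7 CPM in ESCs, and at 53.8 against 106 and 49.3 against 105 CPM in 48h-EpiLCs. Each of these values in 2-cell-like cells rests on 10 to 28 UMIs.

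The 5 genes clearly lower in the ESC library were Tagln, Meg3, Epb41l4a, Acta2 and Bgn, named after their values were seen. Tagln and Acta2, contractile genes of fibroblasts and smooth muscle, stood at 10.9 against 75.2 CPM and at 8.19 against 54.9 CPM. With feeder-like and primitive endoderm-like cells left out of the comparison the log2 ratios were -2.10 for Tagln and -1.95 for Acta2, against -2.68 and -2.60 with them. The list of 7 feeder fibroblast genes summed to 16.4 CPM in 2-cell-like and 33.0 CPM in comparison cells of the ESC library, 4 of the 7 being at 0 in 2-cell-like cells, and to 15.7 and 9.52 CPM in the 48h-EpiLC library, with 5 of the 7 at 0. The part of these cells in the result was not tested further. The 10 genes clearly lower in the 48h-EpiLC library included Dab2ip, Foxo1, Lef1, Slc25a33, Usp46, Gadd45a, Alg11 and Sox4, again named after their values were seen. Sox4 stood at 6.73 against 58.8 CPM there and at 8.19 against 39.0 CPM in the ESC library, from 3 UMIs in each. The 8 trophoblast genes summed to 38.2 against 65.1 CPM and 80.7 against 128 CPM, and the 8 primitive endoderm genes to 27.3 against 55.7 CPM and 8.97 against 11.5 CPM.

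Housekeeping programs differed little. Of 14 glycolysis genes, 0 were past 2-fold in either library, the medians were -0.25 and -0.21, and Eno1, Hk2, Tpi1, Ldha, Aldoa and Pgk1 had intervals below 0 in both. Hexokinase 2, Hk2, stood at 221 against 324 CPM and at 94.2 against 175 CPM. Of 12 nucleolar genes, 0 were past 2-fold, the medians were -0.20 and -0.21, and Nop58, Ncl and Gnl3 had intervals below 0 in both. Nucleolin, Ncl, stood at 4581 against 4897 CPM and at 3634 against 4196 CPM. The median of all genes was -0.05 in the ESC library, where 12 of 12 nucleolar genes lay below 0, and -0.21 in the 48h-EpiLC library. The medians of both lists in the 48h-EpiLC library were thus those of genes at large.

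The medians of the 15 S phase genes were -0.30 and -0.38. The repair enzyme gene Ung stood at 68.3 against 140 CPM (-1.03) and at 62.8 against 130 CPM (-1.04), and the helicase gene Mcm4 at 131 against 179 CPM and at 123 against 161 CPM. The histone mRNA-binding gene Slbp was on the other side, with 243 against 176 CPM and 258 against 207 CPM. The 17 G2/M genes had medians of 0.04 and -0.03, and 0 were past 2-fold in either library.

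Stress and germline genes gave single members rather than whole lists. Of 13 p53 targets, 1 was higher past 2-fold in the ESC library (10.1% of all genes) and 3 in the 48h-EpiLC library (9.78%), where Zmat3 was lower, with medians of 0.17 and 0.27. Btg2, an antiproliferative gene whose protein binds the Ccr4-Not complex, stood at 65.6 against 27.5 CPM (1.22, interval 0.61 to 1.83) and at 87.4 against 31.9 CPM (1.43, interval 0.96 to 1.91), and Trp53inp1 at 73.8 against 48.0 CPM (0.61) and at 117 against 56.6 CPM (1.03). Bax, which promotes apoptosis, stood lower, at 396 against 532 CPM and at 422 against 531 CPM. Of 10 integrated stress response genes, Atf3 stood at 15.7 against 2.32 CPM in the 48h-EpiLC library, from 7 UMIs. Of 9 germline genes, 3 were higher past 2-fold in each library (10.1% and 9.78% of all genes), and Stra8 was lower in the 48h-EpiLC library. Tex19.1, which protects germ cells from retroelements, stood at 284 against 179 CPM (0.67) and at 377 against 142 CPM (1.40), and the RNA-binding gene Dazl at 49.2 against 9.76 CPM (2.22) and at 20.2 against 8.89 CPM (1.1).

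**Figure D5:**
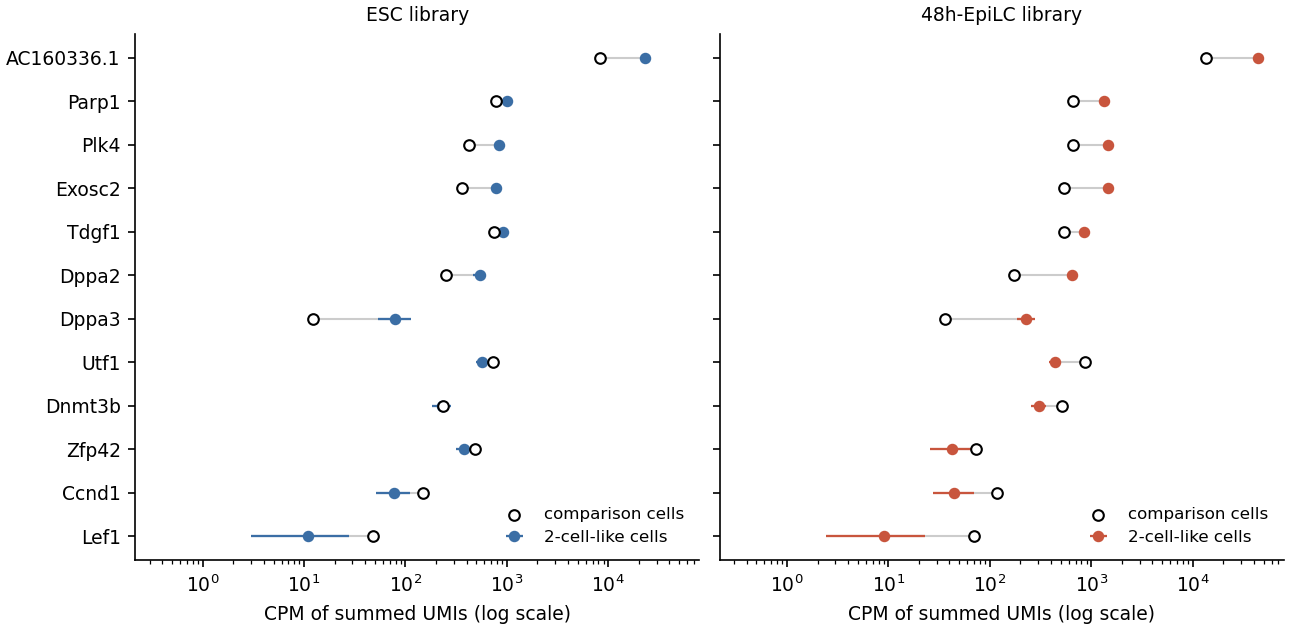
CPM of summed UMIs on a log scale for 12 genes in 2-cell-like cells (filled, with 95% exact Poisson intervals of counting error) and comparison cells (open), in the ESC library (left) and the 48h-EpiLC library (right). Dppa2 stood at 541 against 250 CPM and 643 against 173 CPM, and Lef1 at 10.9 against 47.6 CPM and 8.97 against 70.4 CPM. Dnmt3b differed in the 48h-EpiLC library (305 against 512 CPM) and was nearly equal in the ESC library (227 against 233 CPM).

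The Ccr4-Not complex, to which the deleted gene belongs, gave 20 genes with its partners, of which 19 were used. Among ESCs 0 were past 2-fold, with a median of -0.23, and no interval excluded 0. At 48 h, 3 were higher (Btg1, Pan2 and Tob2, against 9.78% of all genes) and 1 was lower (the scaffold gene Cnot1, against 12.6%), with a median of -0.04. Btg1 stood at 53.8 against 21.98 CPM and Cnot1 at 47.1 against 99.5 CPM there.

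The mixture of lines was read from RNA. A cell was KO-marked when its UMIs of 5 genes seen to mark the KO line, 4 of them Y-linked, outnumbered those of 3 genes that mark the WT line, tdTomato among them. This marking rests on earlier results of these data. The targeted gene Cnot8 itself was no check of it, since it stood at 71.7 CPM in KO-marked and 44.5 CPM in WT-marked kept cells of the ESC library, and at 63.5 and 48.8 CPM in the 48h-EpiLC library, and counts at the transcript end do not read an edit in exon 2. In the ESC library 12 of the 2-cell-like cells were KO-marked, 5 WT-marked and 12 unmarked, and KO-marked cells made up 70.6% of the marked ones (interval 44.0 to 89.7%) against 66.8% of marked comparison cells. At 48 h the numbers were 18, 3 and 10, and the share was 85.7% (63.7 to 97.0%) against 65.6%. Per marked cell, 0.207% of KO-marked (0.107 to 0.362%) and 0.174% of WT-marked cells (0.0565 to 0.406%) were 2-cell-like in the ESC library, and 0.353% (0.209 to 0.557%) and 0.113% (0.0233 to 0.33%) in the 48h-EpiLC library. Intervals of the 2 lines overlapped in both libraries. With only the Y-linked genes against tdTomato the counts were 14 to 1 and 18 to 0, shares of 93.3% and 100% against 92.3% and 92.8% in comparison cells. This marking found only 362 WT-marked comparison cells in the 48h-EpiLC library, against 2626 above, so it can hardly show an excess. With at least 2 UMIs on 1 side and none on the other, the counts there were 10 to 1 (90.9%, 58.7 to 99.8%) against 71.9%. After thinning to 5000 UMIs they were 13 to 4 (76.5%, 50.1 to 93.2%) against 70.6%. The size of the excess thus differed between markings, and each interval included the share in comparison cells.

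Among themselves the 2-cell-like cells differed in the genes they held. In the ESC library the 9 cells with a Zfp352 UMI had 8855 CPM of the other 2-cell genes and the 20 without one had 2469 CPM, a log2 ratio of 1.84. With 2 or more UMIs of Zfp352 asked for, the ratio was 0.83. In the 48h-EpiLC library the 5 cells with a Zfp352 UMI had 8386 CPM and the 26 without had 7391 CPM, a log2 ratio of 0.18. The cells with a Zfp352 UMI had fewer UMIs in the ESC library (median 8525 against 13163) and slightly more in the 48h-EpiLC library (13229 against 12059.5). Among ESCs, B020031M17Rik stood at 2785 CPM in cells with Zfp352 and 137 CPM in those without, BC147527 at 547 and 17.6 CPM, Gm21761 at 949 and 95.1 CPM, Sp110 at 584 and 38.7 CPM, and Platr31 at 5522 and 757 CPM. Among the other rule genes, which a cell without Zfp352 needs more of to be selected, Zscan4c stood at 182 and 152 CPM, Zscan4d at 304 and 479 CPM and Tmem92 at 85.1 and 77.5 CPM. Among 48h-EpiLCs, B020031M17Rik stood at 1555 and 773 CPM, Sp110 at 305 and 81.5 CPM and Platr31 at 8096 and 3859 CPM, while Gm21761 was reversed, at 686 and 1028 CPM.

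The cells were also split at the median load of 2-cell RNA, and the genes given here were chosen after their values were seen. Dppa2 stood at 840 CPM in the upper and 401 CPM in the lower part in the ESC library, with 250 CPM in comparison cells, and at 877, 507 and 173 CPM in the 48h-EpiLC library. Dppa3 followed the same order, with 111, 64.2 and 12.2 CPM and with 402, 128 and 36.5 CPM. The 9 DNA methylation genes ran the other way, with 1259, 1476 and 1567 CPM in the ESC library and 956, 1387 and 1625 CPM in the 48h-EpiLC library, as did the 15 S phase genes with 2279, 2514 and 2703 CPM and with 1864, 2384 and 2719 CPM. Tdgf1 in the 48h-EpiLC library stood at 475 CPM in the upper, 1079 CPM in the lower part and 539 CPM in comparison cells. The lower part included the cell at the median load itself (0.837%), which was the cell with 5174 CPM of Tdgf1. The order of the 2 parts therefore depends on where that 1 cell is placed. Other lists did not keep such an order in the ESC library, with 428, 445 and 280 CPM for the 9 germline genes and 8721, 8024 and 9673 CPM for the 14 glycolysis genes. No intervals are given for the upper and lower parts, and the differences between them were not tested. Dppa3 in particular rests on few UMIs in the ESC library, 12 in cells with a Zfp352 UMI and 17 in those without. Since the upper part had fewer UMIs per cell, load and depth cannot be told apart here.

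The 10 genes whose ratios differed most between the libraries by the naming rule, Hist1h3g, Thbs3, Zfp119a, Alyref2, Fkbpl, Prr18, Fam135a, Ryr1, Atf6 and B3galt4, each had 0 UMIs in the 2-cell-like cells of 1 library and 8 to 13 in the other. Where they were found they stood at 20.2 to 29.1 CPM, and a count of 0 allows up to 8.19 CPM in the ESC library and 6.73 CPM in the 48h-EpiLC library. They were picked for this contrast, and the difference was not tested.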

How the data were processed

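The deposited files hold UMI counts of each gene in each barcode. The authors made them from 2 Chromium 3′ libraries by Cell Ranger 3.0.2 with its default settings, on mm10 with the tdTomato coding sequence added. There were 13184 barcodes and 144584246 UMIs in the ESC library, and 12427 barcodes and 163771168 UMIs in the 48h-EpiLC library. The submitters' processing notes also name Seurat (version 4), whose output was not used here. No correction for free RNA is stated.

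Barcodes were kept when they had 1000 or more genes and no more than 10% of UMIs from mitochondrial genes. Doublets were kept, because the automatic threshold of Scrublet (in scanpy 1.11.5) marked 0 of 11054 and 1 of 9400 cells (0.0106%) and so had not worked, and cells in the top 10% of scores were left out as an alternative. UMIs were summed over 2-cell-like cells (366097 and 446040 UMIs) and over comparison cells (139279590 and 156751649 UMIs) and scaled to CPM. Ratios carry exact conditional binomial intervals, CPM exact Poisson intervals and shares exact Clopper-Pearson intervals, all at 95%. A count of 0 was given a limit of 3 counts. No test was run, as cells of 1 library do not replicate a stage. The stage and replicate of each library came from its labels. Feeder-like and primitive endoderm-like cells had at least 10 UMIs over the list and at least 3 of its genes.

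The rule for the cells, the gene lists and the line marks were chosen with earlier results of these data known. Genes named beyond the lists were the 15 highest and 15 lowest by the smaller ratio of the 2 libraries, among genes of the same direction, with at least 20 CPM and detection in 20% of 2-cell-like cells (highest) or at least 50 CPM in comparison cells (lowest), and the 10 whose ratios differed most. A few genes that these rules pick are not reported here. Positions came from GENCODE M21, in which 32235 of 32286 features (99.8%) were found. Counts may be shared where genes overlap. Of the genes named, Trim28, Ccnd1, Hspbap1, Rrp8, Sp110, Arg2, Pou5f1, Sox2, Otx2, Tet2, Dnmt3l, Tagln, Foxo1, Ubl4a, Alyref2, Ryr1 and Thbs3 overlap another annotated gene, beside those said to in the text. Calculations used numpy 2.4.6, pandas 2.3.3, scipy 1.17.1 and, for scaling factors, edgeR 4.0.16. The comparison was tested on simulated data first. Alternatives changed the rule, the comparison cells, the scaling, the pseudocount, the filter and the lines included.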

Additional observations from a re-analysis of the deposited data

Results flagged for a closer look

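Klf2 and Klf4, a pair of naïve pluripotency factors, lay on opposite sides of the comparison cells in the 2 libraries. The log2 ratio of CPM without a pseudocount was -0.54 for Klf2 in the ESC library and 0.52 in the 48h-EpiLC library, and for Klf4 it was -0.66 and 1.73, with every interval excluding 0. The difference between the libraries was not tested. Klf4 rests on 8 UMIs in 7 cells of the 48h-EpiLC library. Values by line follow on the log2 scale of CPM + 1. Among WT-marked cells Klf2 stood at 0.56 in the ESC library (5 cells) and at 2.20 in the 48h-EpiLC library (3 cells). Klf4 stood at -0.62 and -2.85 in these cells. Among KO-marked cells Klf2 stood at -1.03 and 0.21, and Klf4 at -0.89 and 1.88. KO-marked cells were 85.7% of marked 2-cell-like cells and 65.6% of marked comparison cells in the 48h-EpiLC library. The part of the lines in this contrast was not tested.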

How the results depend on the processing

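The share of 2-cell-like cells depended on the rule. It was 0.109% with at least 10 UMIs, 0.136% with at least 3 rule genes and 0.142% after thinning in the ESC library, and 0.170% with at least 10 UMIs and 0.141% after thinning in the 48h-EpiLC library. Genes higher past 2-fold in the ESC library numbered 2040 with at least 10 UMIs, 559 with a pseudocount of 5, 1776 with no filter, 332 with a filter of 20 CPM, 1678 in KO-marked cells, 1749 in WT-marked cells and 350 with the interval wholly past 2-fold, and genes lower 2598, 535, 2449, 269, 1694, 2593 and 5. Higher genes of the 48h-EpiLC library numbered 1958 with no filter, 503 at 20 CPM, 1814 in WT-marked cells and 521 with the interval wholly past 2-fold. Lower genes there numbered 2026 with at least 10 UMIs, 639 with a pseudocount of 5, 2566 with no filter, 457 at 20 CPM, 4113 in WT-marked cells and 10 with the interval wholly past 2-fold. Genes higher in both numbered 691 with no filter and 216 at 20 CPM, and genes lower in both 751 with at least 10 UMIs, 366 with the mean of per-cell CPM, 61 with a pseudocount of 5, 748 with no filter, 41 at 20 CPM, 356 in KO-marked and 1325 in WT-marked cells.

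The median log2 ratio of the other 2-cell genes stayed at 3.25 or more in the ESC library and at 4.47 or more in the 48h-EpiLC library. In the ESC library it was 6.30 with at least 10 UMIs, 5.84 with the mean of per-cell CPM, 8.03 and 3.25 with pseudocounts of 0.1 and 5, 5.16 with no filter, 6.59 at 20 CPM, 5.62 without the 10 cells richest in rule-gene UMIs, 5.92 in KO-marked and 5.46 in WT-marked cells. For 48h-EpiLCs it was 7.08 with at least 10 UMIs, 6.48 against all other kept cells, 9.16 and 4.47 with the pseudocounts, 5.91 with no filter, 7.26 at 20 CPM, 6.02 without the 10 richest cells, 6.35 in KO-marked and 6.47 in WT-marked cells. The KO-marked share was 93.3% and 100% with Y-linked genes against tdTomato. The Zfp352 log2 ratio of the ESC library was 0.83 at 2 or more UMIs and 1.53 after thinning. The genes per cell of the 48h-EpiLC library, 0.829 of the comparison cells, were 0.912 after thinning.

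Of the named genes past 2-fold, directions turned for Tdpoz1 in the ESC library at 10 UMIs (-0.0103), for Arg2 there in KO-marked cells (-0.24), and otherwise in the few WT-marked cells. These were BC147527 (-0.0733) and Rcor2 (0.0388) in the ESC library, and, with 3 cells in the 48h-EpiLC library, B020031M17Rik (-0.73), Gm4858 (-0.10), Rrp8 (0.70), Pold3 (0.0843), Hist1h3g (-1.64), Fam135a (-3.35), Tcstv1 (-0.10), Dppa3 (-4.44), Klf4 (-2.85) and Dazl (-3.09). Genes under 2-fold turned as well, among them Klf2 of ESCs in WT-marked cells (0.56). The Dppa2 ratio of the ESC library was 0.84 without the 10 richest cells, 0.86 in KO-marked and 0.84 in WT-marked cells, under 2-fold, and 1.72 or more in the 48h-EpiLC library. The cause of these shifts was not tested. Sums without 2-cell genes and AC160336.1, and the interval wholly past 2-fold, were added after seeing the data. No paired analysis was possible because each stage has 1 library. Depth limits genes under 3 UMIs over all cells, and lower genes more than higher ones.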

Other observations

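Among the barcodes that failed the filters, 2 of 2130 in the ESC library met the UMI rule (0.0939%, interval 0.0114 to 0.339%) and 0 of 3027 did in the 48h-EpiLC library, where the limit of a count of 0 is 0.0991%. The median failed barcode had 1146.5 and 1266 UMIs.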
